A study of Mus musculus with 2 samples.

Results

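Chromatin accessibility was described around 9 genes used as markers of neural stem cells, their dividing progeny and newborn neurons: Nes, Hopx, Sox2, Tfap2c, Sox4, Sox11, Igfbpl1, Mki67 and Top2a. They were taken by name, out of 21755 protein-coding genes outside the Y chromosome and the mitochondrial genome. No measured value was a criterion, but earlier results of these data were known when they were chosen. For each gene every DNase-seq peak, footprint and run of bases with a significant FDR was collected over the gene body and 50 kb on each side, in both libraries of the series. Both libraries came from hippocampal tissue (labelled as a layer of the hippocampus) of 25-day-old mice of the hybrid strain B6CASTF1/J, a cross of C57BL/6J with CAST, with no treatment named and both labelled male. They form 1 group, so there was no condition to compare, and values are given for replicate 1 and replicate 2 side by side. The labels number them as biological replicates but name 1 shared donor entry. The libraries differed, however, at genes that mark sex, as described below. The spread between them may thus hold differences between animals, technical differences or both, which cannot be told apart here.

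The dentate gyrus of the hippocampus keeps neural stem cells after birth. These quiescent cells, marked by nestin, SOX2 and HOPX, give rise to dividing intermediate progenitors and then to immature neurons that express SOX4, SOX11 and IGFBPL1, while Ki-67 and topoisomerase II alpha are made by cells in the cell cycle. DNase I cuts accessible DNA, so a peak marks an open promoter or a candidate regulatory element, and a footprint is a short stretch inside an open region where a bound protein protects the DNA. Stem cells and progenitors are a small minority of hippocampal cells. In a bulk sample, fewer cells with an open site and a less open site per cell cannot be told apart.

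The longer peak lists held 93545 peaks in replicate 1 and 79144 in replicate 2, with 223251 and 170016 footprints. A promoter peak here overlaps 1 kb on each side of an annotated transcription start site (TSS), and a distal peak lies outside all such windows of protein-coding genes. Sequencing depth is unknown, because the peak value is a signal height whose scaling is not given. The library labelled male replicate 2 went against its label at the genes that mark sex: the promoters of Ddx3y, Eif2s3y, Kdm5d and Uty on the Y chromosome had a peak in replicate 1 (4 of 4 genes) and none in replicate 2, while the promoter of Xist had 0 peaks in replicate 1 and 3 in replicate 2. Peaks anywhere on the Y chromosome numbered 40 in replicate 1 and 39 in replicate 2, so the total did not set the libraries apart as these genes did. None of the 9 genes lies on a sex chromosome. Among markers of tissue identity, 5 of 5 neuronal genes had a promoter peak in both libraries (Rbfox3, Snap25, Syt1, Slc17a7 and Prox1, a marker of granule cells), against 3 of 5 for astrocytes, 1 of 4 for oligodendrocytes, 1 of 2 for their precursors, 1 of 4 for endothelial cells, 2 of 3 for ependyma and choroid plexus, 0 of 4 for microglia and 0 of 4 for genes of other tissues. The share over all protein-coding genes was 63.2%, and each of these lists is short.

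A promoter peak was present in both libraries at 7 of the 9 genes, against 63.2% of all protein-coding genes, and the other two, Nes and Sox2, each had promoter peaks in a single library. The same 7 genes held bases with an FDR under 0.05 in both libraries within 1 kb of a TSS, against 63.7% of all genes. The peak heights fell into 2 ranges. Sox4, Sox11 and Top2a had mean values between 2.75 and 3.13, above the median of 2.18 over the 13742 genes open in both libraries. Hopx, Tfap2c, Igfbpl1 and Mki67 had mean values between 0.95 and 1.10, below the lower quartile of 1.39.

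**Figure D1:**
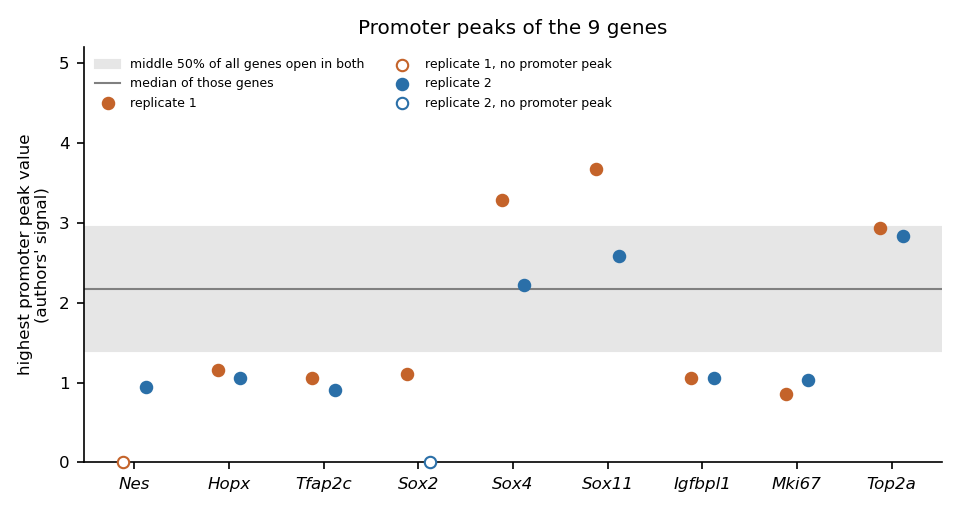
Highest promoter peak value (y axis, the authors' signal) of each gene (x axis) in replicate 1 and replicate 2, with open circles at 0 where a library had no promoter peak. The grey band is the middle 50% and the line the median (2.18) of the mean value of all genes open in both libraries: Sox4, Sox11 and Top2a lie at or above the line in both libraries, and the other 6 genes lie below the band.

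Among the stem cell genes, nestin was the least open in its own sequence. Nes encodes an intermediate filament protein and is the classical marker of neural progenitors (chr3:87971078-87980451, plus strand, mm10). No peak and no base with an FDR under 0.05 fell inside the gene body in either library. That body includes the second intron, known for an enhancer active in the embryonic nervous system. The only promoter peak was 103 bp wide, 0.80 kb upstream, with a value of 0.948 in replicate 2, where the lowest FDR was 0.0105, and with no base under an FDR of 0.05 in replicate 1. The 3 distal peaks in the window were found in both libraries. The strongest, 16.1 kb downstream of the 5′ end and past the 3′ end of the gene, had values of 2.08 and 2.80 (mean 2.44 ± 0.50, SD, n = 2). The others, 35.2 kb upstream in an intron of Isg20l2 and 10.1 kb upstream in intergenic DNA, had values of 1.73 and 1.72, and of 1.46 and 1.39. The count of 3 stood at the middle of the 200 genes nearest in window length (percentile 50.5, median 3), but none of the 3 peaks had the TSS of Nes as its nearest protein-coding TSS, and counted that way Nes was at 0 (percentile 24.8). The element downstream of Nes carried 2 footprints, each found in both libraries, shown here in capitals because they mark the strongest distal element of the window (the promoter shared by Isg20l2 and Rrnad1, upstream, was higher with 3.34 and 3.64):
Element downstream of Nes, chr3:87987021-87987260, plus strand: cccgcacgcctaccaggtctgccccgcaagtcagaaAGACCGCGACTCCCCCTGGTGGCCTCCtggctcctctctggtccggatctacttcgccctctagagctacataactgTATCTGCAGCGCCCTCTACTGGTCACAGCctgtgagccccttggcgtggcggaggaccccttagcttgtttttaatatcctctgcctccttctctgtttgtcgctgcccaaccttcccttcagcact

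Hopx, which encodes an atypical homeodomain protein of quiescent stem cells, was open at both of its start regions (chr5:77086988-77115121, minus strand). The peak at the downstream start, 20.1 kb into the gene, reached 1.15 in replicate 1 and 1.06 in replicate 2 (1.10 ± 0.07, SD, n = 2), percentile 17.1 among open promoters. The peak at the upstream start reached 1.02 and 0.696. Of its distal peaks, 4 in replicate 1 and 3 in replicate 2, the strongest lay 53.6 kb downstream in Thegl with 1.39 and 1.96, and an intronic one had 0.629 and 0.490. The strongest peak in a single library was 7.72 kb upstream with 0.601, in replicate 1. The distal count was close to that of genes of like length (percentile 50.8, median 3.5).

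Sox2, a transcription factor needed to maintain neural stem cells, had the smallest share of significant bases common to both libraries, 13.9% of those found in either (chr3:34650405-34652461, plus strand, a single-exon gene inside the noncoding gene Sox2ot). Replicate 1 had 3 promoter peaks, of 80, 60 and 54 bp, with values of 1.11, 1.11 and 1.00, and replicate 2 had none. Their lowest FDRs were 0.0271, 0.0155 and 0.0407, and replicate 2 had no base under an FDR of 0.05 in them. Replicate 2 instead had a peak of 1.5, 2.49 kb upstream, where replicate 1 had an FDR under 0.05 over 24.3% of the bases but no peak. Replicate 2 also had 4 peaks between 20.7 and 22.5 kb downstream, in an intron of Sox2ot, with values of only 0.219 to 0.38. There the FDR reached 1.59e-10 in replicate 2, and replicate 1 had no base under 0.05. Height and FDR thus ranked these peaks differently. The 2 distal peaks in both libraries lay 7.71 kb upstream (1.29 and 1.24) and 42.0 kb downstream (0.643 and 0.503). With 2 distal peaks in replicate 1 and 7 in replicate 2, the mean count was at percentile 70.3 of genes of like length, and the value in each library lay on opposite sides of their median of 2.5.

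Tfap2c encodes AP-2 gamma, a transcription factor of intermediate progenitors (chr2:172549593-172558622, plus strand), and its openness was gathered around the promoter. Replicate 1 had 6 promoter peaks and replicate 2 had 3, with highest values of 1.05 and 0.902 in a region of 860 bp that starts inside the gene (0.98 ± 0.11, SD, n = 2, percentile 14). Within 1 kb of its start sites, 2351 bases in replicate 1 and 443 in replicate 2 had an FDR under 0.05, and all 443 were also found in replicate 1. No distal peak was shared: replicate 1 had 3, the strongest with 0.537 at 1.52 kb upstream, and replicate 2 had 0. The other 8 members had at least 1 shared distal peak, against 75.2% of all protein-coding genes.

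**Figure D2:**
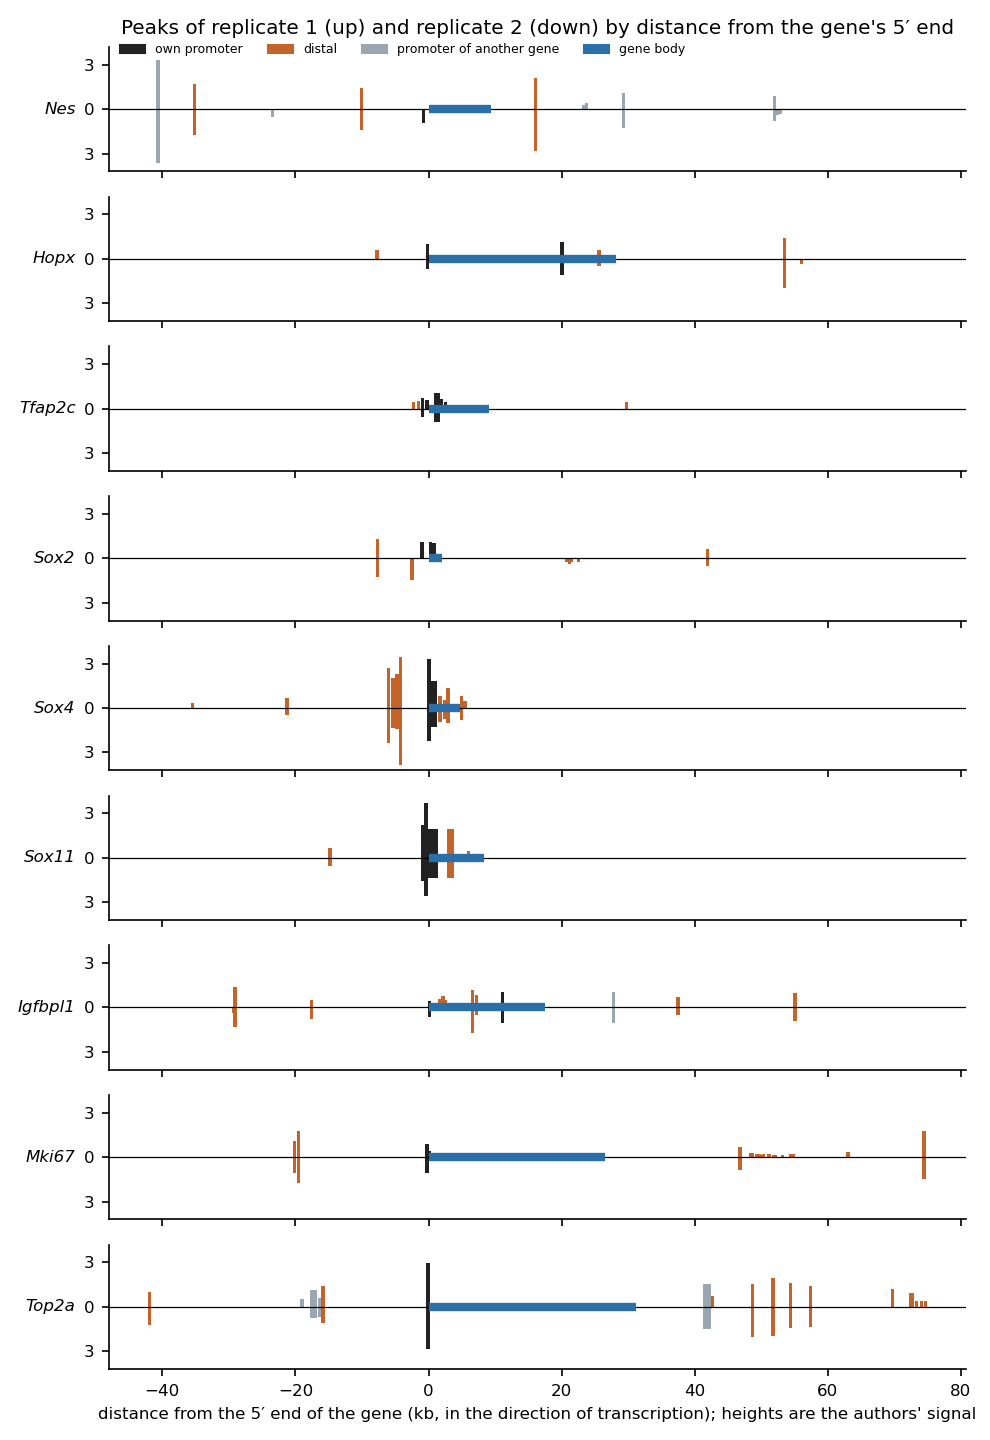
Peaks around each gene by distance from its 5′ end in kb along transcription (x axis), with the authors' signal of replicate 1 upwards and of replicate 2 downwards (bars at least 0.5 kb wide for visibility). Black bars are own promoters, orange bars distal peaks, grey bars promoters of other genes and the blue line the gene body. Sox4 shows 4 tall shared bars just upstream, Nes an empty gene body, and Mki67 a row of small bars in replicate 1 alone.

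Sox4 and Sox11, genes of immature neurons, had the largest shares of significant bases common to both libraries. They encode the SOXC transcription factors, which drive neuronal differentiation. At Sox4 (chr13:28948919-28953713, minus strand) the promoter peak reached 3.29 in replicate 1 and 2.22 in replicate 2 (2.75 ± 0.75, SD, n = 2, percentile 69.4). It was exceeded by an element 4.26 kb upstream, with 3.46 and 3.85 (3.65 ± 0.28). This element was the first of 4 adjoining shared regions between 4.26 and 5.98 kb upstream. The other three had 2.28 and 1.44, 2.02 and 1.31, and 2.71 and 2.38. With 12 distal peaks in replicate 1 and 9 in replicate 2, of which 9 were shared in each, Sox4 was at percentile 94.8 of genes of like length (median 2), close to Mki67 at 94 and Top2a at 90.5. Counting only peaks whose nearest protein-coding TSS was that of the gene left Sox4 at 10.5 (mean of both libraries), Mki67 at 2 and Top2a at 0. In all, 6036 bases of its window had an FDR under 0.05 in both libraries, 83.8% of the bases found in either. The strongest peak in a single library was 0.452 in replicate 1, just past the 3′ end.
Sox4 promoter upstream of the TSS, chr13:28953714-28953840, minus strand: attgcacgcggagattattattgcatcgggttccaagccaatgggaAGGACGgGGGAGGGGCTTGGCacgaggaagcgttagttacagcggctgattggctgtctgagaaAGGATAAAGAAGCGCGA
Element upstream of Sox4, chr13:28957861-28958080, minus strand: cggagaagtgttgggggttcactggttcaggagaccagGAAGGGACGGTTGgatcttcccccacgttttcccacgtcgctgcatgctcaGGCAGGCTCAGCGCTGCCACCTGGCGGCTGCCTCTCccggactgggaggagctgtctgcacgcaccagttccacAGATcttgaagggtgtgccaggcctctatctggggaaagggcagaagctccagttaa
Capitals mark bases inside footprints of both libraries. The promoter footprint at the TSS was 30 bp wide in replicate 1 and 23 bp in replicate 2, and that of the element was 36 bp in both.

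Sox11 (chr12:27334264-27342574, minus strand) had the highest promoter value of the 9, 3.67 in replicate 1 and 2.58 in replicate 2 (3.13 ± 0.77, SD, n = 2, percentile 80.1). All 2001 bases within 1 kb of its TSS had an FDR under 0.05 in both libraries. Its openness went on into the single coding exon (1.92 and 1.35) and the 3′ untranslated region (1.97 and 1.39), while outside the gene 1 shared distal peak was found, 14.8 kb upstream, with 0.629 and 0.580. The distal count of 4 and 3 was at percentile 65.8. Over the own promoter regions of the 9 genes, those of Sox11 included, 31 of 72 footprints of replicate 1 overlapped one of replicate 2. In the promoter region of Sox11 in its coding exon it was 1 of 6, and in the one 0.887 kb upstream 0 of 2. The main promoter regions of Sox4 and Top2a each had 5 of 5. The main promoter region of Sox11 held 11 footprints in replicate 1 and 14 in replicate 2, and 10 of the 11 overlapped one of replicate 2:
Sox11 promoter, part of the strongest region, chr12:27342679-27342978, minus strand: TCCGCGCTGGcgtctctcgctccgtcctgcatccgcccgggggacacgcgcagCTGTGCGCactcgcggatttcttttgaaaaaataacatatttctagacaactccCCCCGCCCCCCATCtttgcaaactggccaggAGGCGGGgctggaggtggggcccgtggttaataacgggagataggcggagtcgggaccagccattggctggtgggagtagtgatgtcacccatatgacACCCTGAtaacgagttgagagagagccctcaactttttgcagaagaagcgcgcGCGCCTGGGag

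Igfbpl1, which encodes an IGF-binding-like protein of neuroblasts, was open at a low level at many places (chr4:45809468-45826923, minus strand). The strongest promoter region, at an internal start 11.1 kb into the gene, had 1.05 in both libraries (percentile 15.9). The region at the outer start had 0.466 and 0.645. Of 9 distal peaks in replicate 1 and 7 in replicate 2, 6 were shared, which put the count at percentile 89.0 of genes of like length (median 3). The strongest shared ones lay 6.63 kb into the gene in an intron (1.19 and 1.73), 29.1 kb upstream in an intron of Stra6l (1.35 and 1.33), and 55.1 kb downstream (0.968 and 0.915). The strongest in a single library was an intronic peak of 0.763 in replicate 1.

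Both cell cycle genes were open at the promoter in both libraries, at different heights. Ki-67 coats mitotic chromosomes and is absent from quiescent cells, and its gene Mki67 (chr7:135689784-135716361, minus strand) had promoter values of 0.862 in replicate 1 and 1.04 in replicate 2 (0.95 ± 0.12, SD, n = 2, percentile 13.2). Topoisomerase II alpha, which untangles sister chromatids before division, is encoded by Top2a (chr11:98992943-99024189, minus strand), and its promoter had 2.93 and 2.84 (2.88 ± 0.07, percentile 73.2), with FDRs down to 2.20e-15 and 1.08e-15. Promoters of genes expressed late in the cell cycle often carry CCAAT boxes, bound by NF-Y, and a CHR element, bound by the complexes that repress them in resting cells. The promoters of both genes hold such words (CCAAT, and TTTGAA or TTTAAA for CHR, searched on both strands; the words do not overlap each other). Top2a has 5 CCAAT words in the 240 bp of its region, a number reached by 0.0690% of the 2900 shared promoter regions of like length (within 20%), itself included. Mki67 has 3 in 380 bp, a number reached by 3.86% of 5856 such regions. That many CCAAT words together with a CHR word were found in 0.0345% and 0.768% of those regions. For Top2a this is its own region alone. Each share given here for CCAAT words, alone or with a CHR word, includes the region whose own count set the number. Other genes of the 9 had such words too: the main Sox4 promoter region has 3 CCAAT words in 360 bp and no CHR word (3.36% of 5499 regions have as many CCAAT words), and an Igfbpl1 promoter region of 310 bp has 2 with a CHR word (2.03% of 3986 regions). Counting words per region was chosen after these sequences had been seen.
Top2a promoter upstream of the TSS, chr11:99024190-99024380, minus strand: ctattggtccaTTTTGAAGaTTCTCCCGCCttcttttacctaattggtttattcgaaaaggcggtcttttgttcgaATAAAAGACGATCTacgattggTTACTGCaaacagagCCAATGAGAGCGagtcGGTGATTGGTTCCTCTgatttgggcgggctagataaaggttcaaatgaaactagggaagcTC
Mki67 promoter upstream of the TSS, chr7:135716401-135716700, minus strand: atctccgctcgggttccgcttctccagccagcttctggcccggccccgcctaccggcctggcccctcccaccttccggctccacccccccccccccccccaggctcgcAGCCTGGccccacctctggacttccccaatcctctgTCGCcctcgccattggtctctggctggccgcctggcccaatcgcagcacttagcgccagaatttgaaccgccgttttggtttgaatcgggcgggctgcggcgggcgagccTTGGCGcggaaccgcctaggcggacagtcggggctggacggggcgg
Capitals again mark bases inside footprints of both libraries. A word was counted in a footprint where its middle base was. In Top2a the CCAAT words 56 and 76 bp upstream of the TSS and the CHR word 177 bp upstream lay in footprints of both libraries. The CCAAT word 96 bp upstream lay in a footprint of replicate 1 only. The CCAAT words 147 and 187 bp upstream and the CHR word 21 bp upstream lay in no footprint. At this promoter 5 of 5 footprints of replicate 1 overlapped one of the 7 in replicate 2. In Mki67 none of the CCAAT words, nor the CHR words 114 and 132 bp upstream, had its middle base in a footprint, although a footprint of replicate 1 reached the edge of a CCAAT word and one of replicate 2 the edge of a CHR word. There, 3 of the 6 footprints of replicate 1 overlapped one of the 5 in replicate 2.

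Outside the promoters, peaks of the cell cycle genes lay mostly in or near other genes. In the Mki67 window 4 distal regions were found in both libraries, the strongest 19.5 kb upstream with 1.75 and 1.73, then 74.5 kb from the 5′ end in an intron of Ptpre with 1.77 and 1.45, and 20.1 kb upstream with 1.10 and 1.08. Replicate 1 had 16 distal peaks against 4 in replicate 2, and 11 of the 16 formed a run of 6.82 kb in Ptpre with values of 0.12 to 0.297. The strongest distal peak in replicate 1 alone, 0.332, also lay in Ptpre, so the higher count of replicate 1 was made up of weak peaks. In the Top2a window 6 of 13 distal peaks of replicate 1 and 7 of 7 of replicate 2 were shared, and the strongest lay in Rara, a nearby gene that encodes a retinoic acid receptor, or between it and Top2a: 1.93 and 1.97, then 1.55 and 2.02, then 1.63 and 1.40. The strongest in a single library, 1.21 in replicate 1, was also in Rara. The mean distal count of 10 for each gene rested on peaks far from it: with 10 kb on each side it was 0 for both, at percentile 16.8 for Mki67 and 15.5 for Top2a. For Mki67 it also rested on replicate 1, with percentile 96.3 in replicate 1 alone, 66.5 in replicate 2 alone and 63.8 without the dense run. Inside the gene bodies themselves both genes had few peaks: Mki67 had 1 in replicate 1 and 0 in replicate 2, and Top2a had 1 in each, at the 5′ end.

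**Figure D3:**
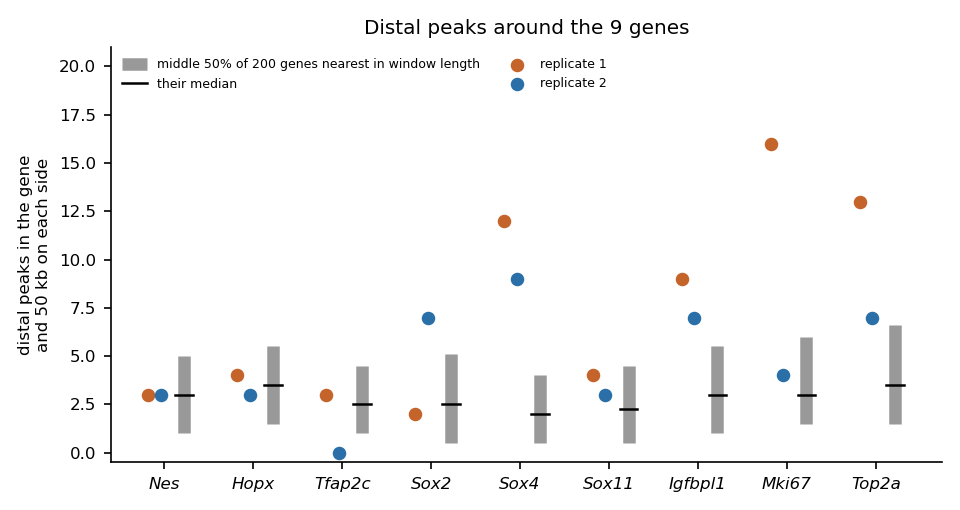
Number of distal peaks (y axis) in the window of each gene (x axis) in replicate 1 and replicate 2, beside the middle 50% (grey bar) and the median (black line) of the 200 genes nearest in window length. Both libraries lie above the grey bar at Sox4, Igfbpl1 and Top2a, and within or at it at Nes, Hopx and Sox11, while at Tfap2c, Sox2 and Mki67 the libraries lie apart.

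Over the 9 windows, distal peaks found in both libraries had higher median values than such peaks of the genome. The windows held 66 distal peaks in replicate 1 and 43 in replicate 2. Of these, 53.0% (35 of 66, 95% Clopper-Pearson interval 40.3 to 65.4%) overlapped a peak of the other library in replicate 1, against 51.5% of all distal peaks. In replicate 2 it was 83.7% (36 of 43, 69.3 to 93.2%), against 64.7% of all. The intervals cover counting error only, and peaks of 1 window share their library. The shared peaks had median values of 1.37 and 1.28, against 0.763 and 0.677 over all shared distal peaks. The 9 genes did not add equally to them: Sox4 gave 9 in each library and Tfap2c 0. The windows also hold peaks nearer to the TSS of another gene, such as all distal peaks of Nes and Top2a. Single-library distal peaks were low, with medians of 0.424 and 0.335, against 0.403 and 0.393 over all. Of the 28 distal regions with a peak in replicate 1 only, 1 had any base under an FDR of 0.05 in replicate 2, and of the 7 with a peak in replicate 2 only, 1 had any in replicate 1. Among the 28 are the 11 of the run in Ptpre near Mki67, which are not separate observations. The same shares over all single-library distal regions are not given here, so these counts have no background beside them.

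Where both libraries had a single peak in the same region, they gave similar heights. Over 45 such regions of the 9 windows the log2 ratio of replicate 1 over replicate 2 had a median of 0.05 and an SD of 0.36, and ranged from -0.55 to 0.77. Over all 44184 such regions of the genome the median was 0.11 and the SD 0.37. None of the 45 lay more than 2 SD from the genome-wide median, while 2045 of the 44184 did.

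**Figure D4:**
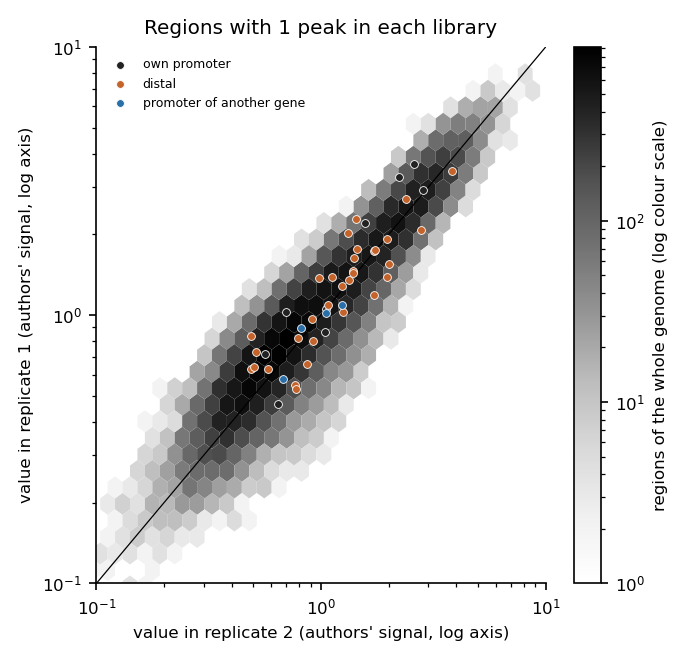
Value of each region with 1 peak in each library, replicate 2 on the x axis and replicate 1 on the y axis (both the authors' signal on log axes), with the 9 windows as coloured points over the density of all 44184 regions in grey. The points lie along the diagonal, inside the spread of the genome.

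Footprints in the 9 windows were about as dense as elsewhere. Promoter peaks of the genes held 9.23 footprints per kb in replicate 1 and 9.32 in replicate 2, against 9.56 and 9.26 over all promoter peaks, and distal peaks held 7.67 and 8.75 against 7.16 and 7.61. Of the footprints of replicate 1, 31 of 72 in own promoter regions and 45 of 129 in distal regions overlapped one of replicate 2. The same share over all footprints of the genome is not given here. The SOX word ACAAAG, the target of SOX2, SOX4 and SOX11 among others, was in 0 of the 13 shared promoter regions (19.97% of shared promoter regions of like length held it) and in 9 of the 34 shared distal regions (26.5%, against 22.4% of shared distal regions of like length), and no copy lay in a footprint of both libraries. A second SOX word, ACAATG, was in 2 of the 13 promoter regions (15.4%, against 9.81%) and in 2 of the 34 distal regions (5.88%, against 13.5%), also with no copy in a footprint of both.

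Reading the longest footprints outside the promoters showed the core of the site of CTCF, the zinc finger protein that marks domain borders and anchors chromatin loops, and the core was then searched in every footprint of both libraries (12 letters, up to 2 mismatches, either strand, within 41 bp centred on the footprint). This search was therefore chosen after the sequences had been seen. Of the distal footprints of at least 20 bp in the 9 windows, 10 of 12 in replicate 1 and 15 of 16 in replicate 2 held the core (83.3% and 93.8%), against 74.0% and 78.9% of all such distal footprints. In the promoter peaks of the genes it was 1 of 7 and 1 of 3, against 20.4% and 23.9% of all. These lay in the strongest promoter regions of Tfap2c (31 bp, replicate 1, 1 mismatch) and Igfbpl1 (27 bp, replicate 2, 0 mismatches). The only Nes promoter peak also held letters that fit the core, in a footprint of 15 bp of replicate 2, under this length. Footprints under 20 bp held it in 9.89% and 11% of cases in the own promoter and distal regions of the genes. Over all footprints of the genome under 20 bp, those outside peaks included, it was 7.42% and 8.89%. In the windows of 6 of the genes, 10 distal footprints were at least 20 bp wide in both libraries, and 10 of 10 held the core, against 85.0% and 85.3% of all such footprints in replicate 1 and replicate 2. The 9 windows are thus near the genome in this respect, and what they show is where these sites lie. They include the strongest shared distal element of Nes, Hopx, Sox4, Igfbpl1, Mki67 and Top2a. The sites are written in the direction of the core with 8 bases on each side, and capitals mark the letters that fit it:
Nes, 35.2 kb upstream, chr3:87935892-87935919, plus strand, 0 mismatches: ctgggtggCCACCAGAGGGCaccattgc
Nes, 16.1 kb downstream, chr3:87987059-87987086, minus strand, 1 mismatch: ccaggaggCCACCAGGGGGagtcgcggt
Nes, 16.1 kb downstream, chr3:87987136-87987163, minus strand, 0 mismatches: ggctgtgaCCAGTAGAGGGCgctgcaga
Hopx, 53.6 kb downstream, chr5:77061554-77061581, minus strand, 2 mismatches: gcgaggtgCCgCaAGGGGGCcaccgaga
Sox4, 4.26 kb upstream, chr13:28957957-28957984, plus strand, 1 mismatch: agaggcagCCgCCAGGTGGCagcgctga
Igfbpl1, 6.63 kb downstream, chr4:45820263-45820290, plus strand, 0 mismatches: atcagatgCCAGCAGGGGGCgctgctca
Igfbpl1, 29.1 kb upstream, chr4:45855957-45855984, minus strand, 2 mismatches: atgagtgaaCgCTAGGGGGCgagctctc
Mki67, 19.5 kb upstream, chr7:135735777-135735804, minus strand, 2 mismatches: ctaagtggCCgCCAGGTGaCgctgtggt
Top2a, 51.8 kb downstream, chr11:98972399-98972426, minus strand, 1 mismatch: agatctggCCACTtGGGGGCgggtctgc
Top2a, 48.6 kb downstream, chr11:98975535-98975562, plus strand, 0 mismatches: tatgtcagCCACTAGGTGGCagcagctg
The strand named is that of the core, and positions are of GRCm38.p6, the same build as mm10. The peak of 1.5 upstream of Sox2, found in replicate 2 alone, also held the core, with 0 mismatches, in a footprint of 27 bp. A match describes the letters and does not show that CTCF was bound. The letters are those of GRCm38.p6, and the alleles of these hybrid mice were not read.

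**Figure D5:**
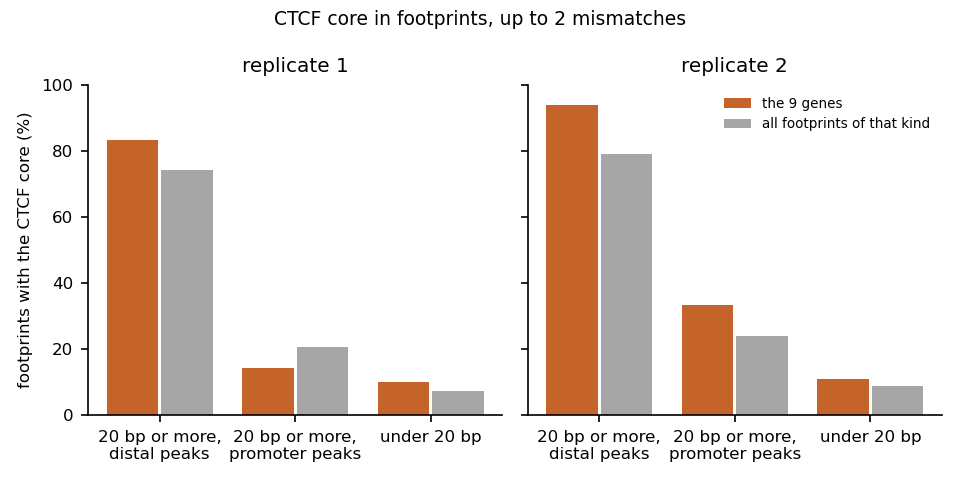
Share of footprints (y axis, percent) with the CTCF core in replicate 1 (left) and replicate 2 (right), for footprints of at least 20 bp in distal peaks, of at least 20 bp in promoter peaks, and under 20 bp (x axis). Orange bars are the own promoter and distal regions of the 9 genes, without promoters of other genes. Grey bars are all footprints of that kind in the genome, and under 20 bp these include footprints outside peaks. The long distal ones stand at 83.3% and 93.8% in the 9 windows.

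Bases with an FDR under 0.05 were densest around Sox4. Per kb of window, Sox4 had 68.5 such bases in replicate 1 and 57.8 in replicate 2, the most of the 9 genes in each library, against medians of 22.3 and 19.0 over all genes. Hopx had 15 and 11.9, Sox2 had 11.7 and 15.4, and Tfap2c had 27.4 and 4.36. The share of bases found in both libraries, out of those found in either, ran from 13.9% at Sox2 and 15.9% at Tfap2c to 83.8% at Sox4 and 89.6% at Sox11.

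Other genes of these programmes were taken as lists, of which all but the AP-2 list were mostly open at the promoter. Of 26 further progenitor and neurogenesis genes, 23 had a promoter peak in both libraries and 2 had none in either, Thbs4 (thrombospondin 4) and Neurod4 (a proneural transcription factor), while Notch1, a receptor that keeps stem cells undifferentiated, had 0.975 in replicate 1 alone. The most distal peaks of that list lay around Thbs4, 15 in replicate 1 and 29 in replicate 2, and Emx1, 12 and 9. All 30 cell cycle genes of the list had a promoter peak in both libraries, with a median value of 2.14 over the list, below Top2a and above Mki67, and Aurkb (22 and 26) and Tyms (22 and 22) had the most distal peaks. Of 19 SOX genes, the 3 members included, 14 were open in both libraries and Sox7 and Sox10 in neither; Sox5 (29 and 30 distal peaks) and Sox1 (36 and 6) had the most. Of the 4 AP-2 genes other than Tfap2c, Tfap2a alone had a promoter peak in both libraries, of 1.01 and 0.754, and Tfap2b, Tfap2d and Tfap2e had none in either. Tfap2e (13 and 7) and Tfap2a (4 and 3) had the most distal peaks of the AP-2 list. These shares stand against the 63.2% of all genes, and the lists were drawn up with results of these data known, so they are given as a description.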

How the data were processed

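DNase-seq of 2 libraries of 1 group was used, with replicate numbers from the labels. The file headers and the accompanying list of files name mm10 and show that each library had its own peaks, a shorter peak list, footprints and FDR runs, with no pooling. Which aligner and callers were used was not given in the sources used here. Each deposited peak value is a signal height made by the authors, of unstated scaling. The deposited p-value type column holds an FDR that the authors gave to each run of bases, and only runs under 0.05 are listed. Sequencing depth is unknown.

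Gene models and TSSs came from GENCODE M21, and the genome sequence was GRCm38.p6. All printed sequences, word counts and core matches were read from that sequence, not from the alleles of the hybrid mice. An overlap of 1 bp or more made a peak shared. Distal counts were set beside the 200 protein-coding genes nearest in window length, and percentiles count ties at their middle. No test was run, since 1 group allows none. Counting and searching were tested on simulated data. The alternatives tried were the shorter peak list, either library alone, other promoter and gene windows, a stricter overlap and a stricter FDR. Python 3.11.15 was used with numpy 2.4.6, pandas 2.3.3, scipy 1.17.1 and matplotlib 3.10.9.

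The members and lists were chosen with earlier results of these data known. For each member the text names the strongest promoter peak, up to 3 shared distal peaks by mean value and the strongest single-library distal peak. For each list it names the genes with no promoter peak and the 2 with the most distal peaks. The notes on CTCF and on words per promoter were added after seeing the sequences.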

Additional observations from a re-analysis of the deposited data

How the results depend on the processing

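Of 55 alternative values of the main results, 31 stayed and 24 moved. Staying meant within 1.5 times the main count, or, for other values, within the spread of the libraries or the counting interval. Only the log2 ratio of the libraries could change sign, and it did not. No paired analysis was possible because there is 1 group and no comparison of groups. A promoter peak in both libraries was found at 7 of the 9 genes also with the shorter peak list and a promoter window of 500 bp, at 8 with a window of 2.5 kb, and at 8 in either library taken alone. The 63.2% of all protein-coding genes holds for the main setting only. The share of all genes under these other settings is not given here, so these counts have no background beside them. The median promoter value of the 9 genes was 1.05, and 1.10 with a promoter window of 2.5 kb; with 1 library left out it ran from 1.05 to 1.11. The 9 windows held 54.5 distal peaks (mean of both libraries), 32.5 with the shorter list, 21 with 10 kb on each side, 84.5 with 100 kb, and 27.5 when the nearest protein-coding TSS had to be that of the gene. The median count per gene was 4.5, and 2 with 10 kb, 7.5 with 100 kb and 2 by nearest TSS. The shared share, 65.1% over both libraries, was 76.2% with 10 kb, and 44.0% with a reciprocal overlap of 50%, where it was 37.4% over all distal peaks. The median percentile of the distal count was 70.3; it ran from 66.5 to 68 with 1 library left out, and was 77.3 with the shorter list, 79.8 with a promoter window of 2.5 kb, 78.5 with 10 kb, 72.5 with 100 kb, 78.8 by nearest TSS, 66.3 without dense runs of single-library peaks and 64.2 among all genes. Footprints summed to 178, and to 117.5 with 10 kb and 76 when they had to overlap one of the other library. Bases with an FDR under 0.05 summed to 32391, and to 16526 with 10 kb and 20190 at an FDR of at most 0.001. The share of long footprints with the CTCF core was 71.1% over both libraries (48.5% and 56.5% of all long footprints in replicate 1 and replicate 2), 50% with up to 1 mismatch (36.4% and 43.5% of all) and 50% from 15 bp (32.0% and 40.0% of all), the last 2 settings chosen after seeing the data. These sets are unlike. That of the genes leaves out promoters of other genes, and that of all footprints includes every promoter and footprints outside peaks. In replicate 1 and replicate 2, promoter peaks, where the core was rarer, held 7 and 3 long footprints of the genes. Distal peaks held 12 and 16. Over all it was 6201 and 5812 in promoter peaks and 7506 and 9125 in distal peaks. How much of the gap this makes was not tested. By nearest TSS the count fell to 0 at Nes and Top2a, and with 10 kb to 0 at Mki67 and Top2a. Mki67 ranked above Sox4 in replicate 1 alone (96.3 against 93.3), with a promoter window of 2.5 kb (98 against 95.8) and with 100 kb (93.8 against 93.3). The causes were not tested. Unknown depth limits the call of a peak in 1 library only.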
